A study of Homo sapiens with 16 samples.

Results

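The 314 sites described here are the SMAD2/3 binding sites that were called in A375 melanoma cells both with and without added ligand. A site is a SMAD2/3 peak of the TGFB1-treated library on chromosomes 1 to 22 or X that shares at least 1 bp with a SMAD2/3 peak of the vehicle library, and whose summit lies in or within 100 kb of a RefSeq protein-coding gene. They make up 314 of the 11406 SMAD2/3 peaks called with TGFB1, and 3.32% of the 9448 of those peaks that lie near a gene. They overlap 305 of the 1247 peaks called with vehicle. The other 9134 peaks near a gene were called in the TGFB1 list alone, and 78 vehicle peaks near a gene were called in the vehicle list alone.

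A375 is an established human melanoma cell line. After 2 h of serum starvation, one culture condition received human recombinant TGFB1 at 10 ng/mL and the other the vehicle, which was 4 mM HCl with 1 mg/mL BSA, in both cases for 2 h. Chromatin of 200 to 300 bp was precipitated with 10 µg of antibody against SMAD2/3, H3K27ac, JUNB, ATF3 or MITF, which gave 10 libraries, 1 for each antibody and treatment. The SMAD2/3 and H3K27ac libraries carry the same experiment date, JUNB and ATF3 carry another date and MITF one of its own, so antibody and date cannot be told apart across those sets. The design text mentions technical triplicates, but there was 1 library a group, so no difference given here has a replicate check and no test was run. Intervals in parentheses are 95% Wilson intervals over sites and cover counting error only. H3K27ac peaks lay at the gene ends of 4 of 7 melanocyte lineage marker genes with vehicle and 5 of 7 with TGFB1, and at 1 of 6 marker genes of other cell types (GFAP, a gene of glial cells) in both. The share over all protein-coding genes was not counted, so these counts are no evidence of cell identity.

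SMAD2 and SMAD3 are the signal carriers of the TGF-beta pathway. The receptor kinases phosphorylate them, they join SMAD4 in the nucleus, and the complex binds short DNA motifs together with other transcription factors, among them the AP-1 family to which JUNB belongs and to which ATF3 is related. The pathway switches on its own inhibitors, SMAD6, SMAD7, SKIL and PMEPA1 among them, and in melanoma it is known for its link to an invasive, less pigmented state. MITF is the main regulator of the pigment cell lineage, and H3K27ac marks active promoters and enhancers.

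The summit of 22 of the 314 sites fell inside a RefSeq promoter window, taken from 250 bases before to 50 bases after a gene's start, and these 22 sites touched 27 windows because some genes start back to back. The 4 windows printed here were chosen because they join the pathway's own genes to the site with the highest -log10 p of those in a promoter. They are RefSeq sequences of build GRCh38.p14, written 5′ to 3′ on the strand of the gene, and capitals mark GTCTAGAC (the palindromic SMAD element), CAGAC (the SMAD box), GGCGC (a GC-rich SMAD motif), TGANTCA (the AP-1 site), TGACGTCA (the ATF/CRE site), CACGTG or CATGTG (E-boxes of the kind MITF binds), each searched on both strands.
SMAD6 promoter, chr15:66701986-66702285, plus strand: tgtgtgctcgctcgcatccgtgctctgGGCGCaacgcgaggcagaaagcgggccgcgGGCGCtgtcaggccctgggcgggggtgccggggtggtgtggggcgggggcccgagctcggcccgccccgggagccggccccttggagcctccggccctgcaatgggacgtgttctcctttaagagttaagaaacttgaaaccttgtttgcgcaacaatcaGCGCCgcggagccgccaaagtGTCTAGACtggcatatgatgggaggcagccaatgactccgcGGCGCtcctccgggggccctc
PMEPA1 promoter, chr20:57709966-57710265, minus strand: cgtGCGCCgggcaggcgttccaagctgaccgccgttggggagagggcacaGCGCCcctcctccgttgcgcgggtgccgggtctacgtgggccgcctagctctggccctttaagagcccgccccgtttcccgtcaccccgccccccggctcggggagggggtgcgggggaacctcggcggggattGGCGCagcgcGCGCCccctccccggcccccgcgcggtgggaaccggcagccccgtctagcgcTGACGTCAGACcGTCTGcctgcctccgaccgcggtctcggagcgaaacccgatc
TGFB1 promoter, chr19:41353873-41354172, minus strand: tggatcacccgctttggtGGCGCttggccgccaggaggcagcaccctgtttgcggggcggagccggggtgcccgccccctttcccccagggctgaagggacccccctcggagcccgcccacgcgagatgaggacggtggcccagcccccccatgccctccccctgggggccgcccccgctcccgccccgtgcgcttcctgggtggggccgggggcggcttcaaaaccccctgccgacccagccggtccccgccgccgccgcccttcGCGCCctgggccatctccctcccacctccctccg
LINC00886 promoter, chr3:156817013-156817312, minus strand: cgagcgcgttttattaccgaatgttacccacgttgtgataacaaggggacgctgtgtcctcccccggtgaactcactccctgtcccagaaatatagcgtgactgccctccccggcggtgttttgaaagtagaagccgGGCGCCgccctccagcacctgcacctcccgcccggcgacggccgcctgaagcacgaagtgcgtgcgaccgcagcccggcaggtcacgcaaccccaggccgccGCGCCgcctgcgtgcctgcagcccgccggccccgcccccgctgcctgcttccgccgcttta
The SMAD6 window holds GTCTAGAC once and GGCGC 4 times. The PMEPA1 window holds TGACGTCA once, and that match shares 2 bases with the first of 2 CAGAC matches. The TGFB1 and LINC00886 windows hold GGCGC only, 2 and 3 times. GGCGC was present in 26 of the 27 windows (96.3%), against 84.3% of the 1114 windows that hold a summit called in the TGFB1 list alone and 48.6% of all 35116 promoter windows. CAGAC was present in 8 (29.6%), against 45.5% and 45.3%. TGACGTCA was present in 3 (11.1%), against 3.86% and 1.85%, and TGANTCA in 3 (11.1%), against 11.2% and 7.71%. GTCTAGAC was present in 1 (3.70%), against 0.359% and 0.202%. CACGTG was present in 1 (3.70%), against 13.8% and 7.26%. CATGTG was found in none, against 5.39% and 11.1%. A match says that these letters stand in the window and no more.

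Each peak carries the authors' own -log10 p at its summit and its fold enrichment, the pileup over the local background. Both chose the sites, so the SMAD2/3 values are a description and support nothing. Pileups, the numbers of extended reads over a summit, were solved from those 2 values and came out whole, within 0.01 reads, for all 314 sites in both libraries. The median pileup was 24 reads with vehicle and 29 with TGFB1. The libraries were of like implied depth (9.37 M reads with vehicle, 10.2 M with TGFB1), but reads were extended further in the vehicle library (shortest peak 311 bp against 183 bp), which adds reads to its pileups. Fold enrichment sets each pileup over the local background of the same peak list. Whether that background came from an input is not given in the sources used here. It differed between the lists, at the RN7SL1 site 40.2 with vehicle and 16.8 with TGFB1, so fold enrichment carries that difference too. The 2 scales differ: the TGFB1 value was the lower at 142 of 314 sites by pileup and at 79 by fold enrichment. The values of the 2 libraries are therefore set side by side, neither ratio is a measured change, and counts of direction are given on both scales. Where 2 sites share a vehicle peak, both carry its pileup. The summits of the 2 lists lay a median of 65 bp apart, and 195 of 314 (62.1%) were within 100 bp.

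**Figure D1:**
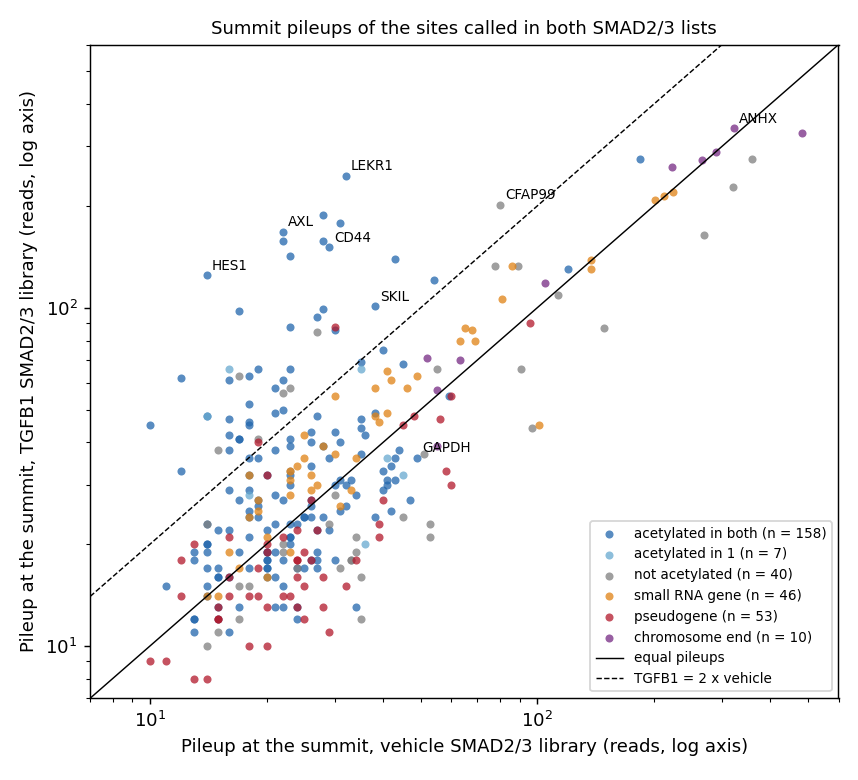
Pileup at the summit of each of the 314 sites in the vehicle SMAD2/3 library (horizontal, reads, log axis) and the TGFB1 SMAD2/3 library (vertical, reads, log axis), coloured by class, with 1 point a site. The sites above the dashed line, such as HES1, LEKR1 and AXL, are mostly acetylated, while small RNA genes and chromosome ends lie nearer to the line of equal pileups. By fold enrichment, which is not drawn, 41 of 46 small RNA sites and all 10 chromosome ends were higher with TGFB1.

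The genes of the pathway come first. The ligand gene TGFB1 had a site at its own start (chr19:41353706-41354192, summit 0.04 kb outside the gene), with a pileup of 16 reads with vehicle and 29 with TGFB1. It was the single gene with a shared site among 19 receptor and ligand genes, of which 12 had a SMAD2/3 peak of any kind with TGFB1. Over all 19970 protein-coding genes, 1.42% had a shared site in the body or within 10 kb, and 28.2% had a SMAD2/3 peak with TGFB1. None of 12 genes for SMAD proteins and their partners had a shared site, and 3 had a peak with TGFB1.

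Of 12 feedback inhibitor genes 4 had a shared site, and 10 had a peak with TGFB1. SKIL encodes a corepressor that binds SMADs, and its site (chr3:170356651-170357974, 0.61 kb outside the gene) had 38 reads with vehicle and 101 with TGFB1, at -log10 p of 31.8 and 117. The site at the start of PMEPA1, a membrane protein that holds back SMAD activation (chr20:57709699-57710768), had 23 and 66 reads. A second PMEPA1 site, at chr20:57708708-57709513, shared the same vehicle peak and had 23 reads with TGFB1. SMAD6 encodes an inhibitory SMAD, and the site over the promoter printed above (chr15:66701887-66702373) had 23 and 41 reads. The site inside SMAD7, the other inhibitory SMAD (chr18:48948569-48948751), had 13 and 12 reads, about equal. All 5 sites were acetylated in both treatments. No JUNB or ATF3 peak lay on any of them with vehicle except a JUNB peak at SKIL, while with TGFB1 both JUNB and ATF3 were called at SKIL, SMAD6 and the PMEPA1 start.

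Of 26 known target genes 4 had a shared site, and 19 had a peak with TGFB1. HES1, a repressor better known as a Notch target, had its site 2.96 kb outside the gene (chr3:194140688-194142164), with 14 reads with vehicle and 125 with TGFB1. COL7A1, which encodes the collagen of anchoring fibrils, had its site at a gene end (chr3:48595490-48596180), with 22 and 158 reads. BHLHE40, a transcriptional repressor, had 18 and 52 reads at chr3:4978251-4979337, and MMP2, a matrix protease, had 14 and 23 at chr16:55479101-55479475. The TGFB1 pileup was the higher in all 4. The H3K27ac peak at the COL7A1 site had a -log10 p of 28.5 in the vehicle list and 193 in the TGFB1 list. The same values were 175 and 209 at HES1 and 154 and 219 at BHLHE40. At MMP2 they went the other way, 181 and 163.

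Among 14 AP-1 genes JUNB and FOSL1 had a shared site, and 10 had a peak with TGFB1. The JUNB site (chr19:12793364-12794290) had 27 reads with vehicle and 48 with TGFB1, and JUNB protein itself was called there in both treatments. The site 1.28 kb outside FOSL1 (chr11:65890137-65892037) had 30 and 43 reads, and its summit lies inside another gene, CCDC85B. Of 22 adhesion and cytoskeleton genes 2 had a shared site, although 20 had a peak with TGFB1. CD44, a cell surface receptor for hyaluronan, had 29 and 151 reads at a site inside the gene (chr11:35166542-35167188), and VIM, the intermediate filament vimentin, had 28 and 24.

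Of 13 neural crest and dedifferentiated melanoma genes 3 had a shared site, and 8 had a peak with TGFB1. AXL, a receptor tyrosine kinase of dedifferentiated melanoma, had 22 reads with vehicle and 168 with TGFB1 at a site inside the gene (chr19:41225723-41226605), and all 8 of the other peak lists had a peak there. EGFR had 38 and 24 reads at a site 8.14 kb outside the gene, and NES, an intermediate filament of progenitor cells, had 26 and 40 at a site 8.50 kb outside. The site counted for NES lies nearer to another gene, 0.734 kb outside BCAN. None of 16 pigment cell genes had a shared site, which at 1.42% of all genes is no departure from the background, and 11 had a SMAD2/3 peak with TGFB1.

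Of 15 housekeeping genes 2 had a shared site, and 5 had a peak with TGFB1. The GAPDH site (chr12:6537641-6538359) had 49 reads with vehicle and 36 with TGFB1. EEF1A1, the translation elongation factor, held 5 sites along the gene (chr6:73517605-73521273), with 18 to 27 reads with vehicle and 12 to 21 with TGFB1. The vehicle value was the higher at 5 of these 6 sites by pileup but at 3 by fold enrichment, where GAPDH stood at 10.5 with vehicle and 10.9 with TGFB1. At the pathway, target, AP-1, adhesion and neural crest genes the TGFB1 value was the higher at 13 of 17 sites by pileup and at 16 by fold enrichment, and SMAD7 was lower on both scales. Over all 314 sites the TGFB1 value was the higher at 159 by pileup and at 235 by fold enrichment.

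**Figure D2:**
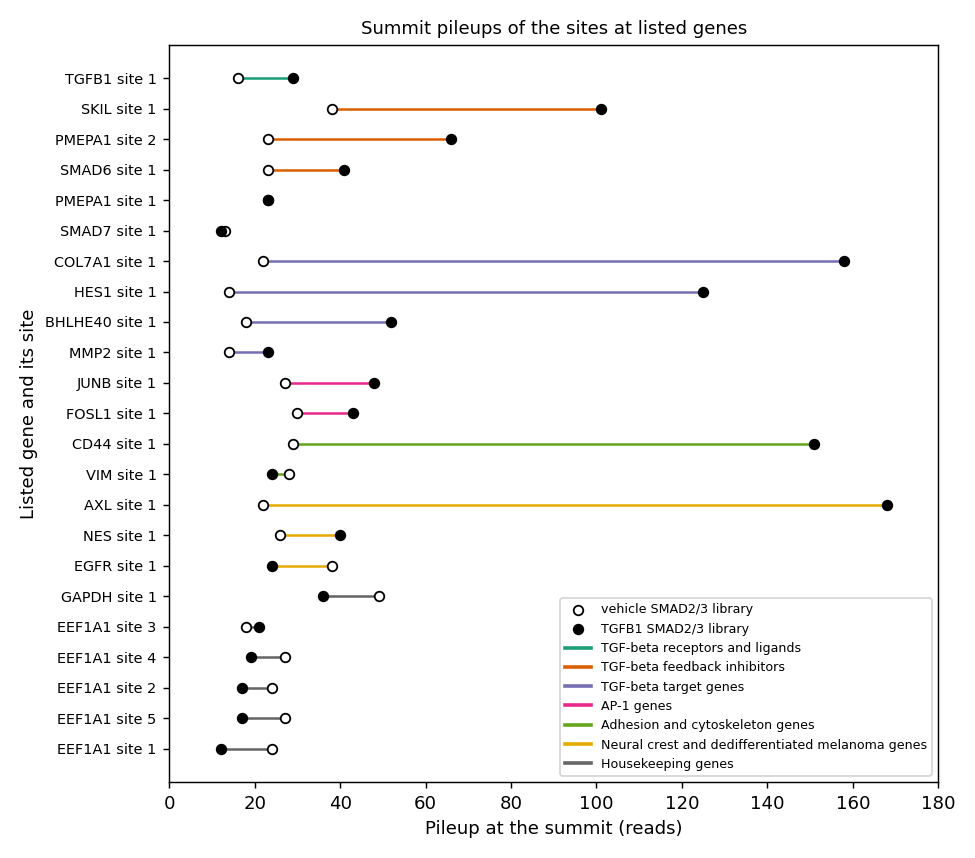
Summit pileup (reads) of each site in or within 10 kb of a listed gene, with open circles for the vehicle and filled circles for the TGFB1 SMAD2/3 library, and line colour for the gene list. AXL, COL7A1, CD44 and HES1 reach 125 to 168 reads with TGFB1 from 14 to 29 with vehicle, while GAPDH and most EEF1A1 sites have fewer reads with TGFB1, a direction that fold enrichment turns at GAPDH and the fifth EEF1A1 site.

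Several of the sites with the highest -log10 p lie at genes outside these lists. The highest, inside CFAP99 (a cilium gene, chr4:2429971-2430716), had a -log10 p of 361 with TGFB1 and 97.1 with vehicle and pileups of 202 and 80 reads. It had no H3K27ac peak in either treatment, but an ATF3 peak with -log10 p of 103 in the vehicle list and 281 in the TGFB1 list. The fold enrichment of that ATF3 peak was 42.2 with vehicle and 67.1 with TGFB1. The ATF3 libraries differed in implied depth, 6.37 M reads with vehicle and 28.1 M with TGFB1. The next, 9.26 kb from LEKR1 (chr3:156816092-156817673), lies over the start of the long noncoding RNA LINC00886 printed above and had 32 reads with vehicle and 246 with TGFB1, with a peak in all 8 other lists. The site 15.2 kb from DNAH17, an axonemal dynein gene (chr17:78592165-78593033), had 28 and 188 reads, and that at a gene end of S100A2, a calcium-binding protein (chr1:153566335-153566980), had 31 and 178.

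The sites are of several kinds. The 3 classes were defined by position, after the lists had been examined: sites that overlap a small RNA gene, sites that overlap a pseudogene, and sites within 20 kb of the outermost position listed on a chromosome by any gene or peak. The last class thus rests partly on the peaks themselves, those of SMAD2/3 included. A site in more than 1 class was placed in the first that fits. This left 205 sites in none of the classes, of which 158 overlapped an H3K27ac peak in both treatments, 7 in 1 treatment and 40 in neither. Over all classes 105 of the 314 sites had no H3K27ac peak in either treatment, so a site is described here as called in both lists and not as a regulatory element.

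Small RNA genes were overlapped by 46 of the 314 sites (14.6%, 11.2 to 19.0), against 1.17% of all SMAD2/3 TGFB1 peaks near a gene. The TGFB1 list alone had 65 of 9134 (0.712%). Spliceosomal and other snRNA genes were at 22 sites, and snoRNA and tRNA genes at 7 each. The 5S rRNA genes RNA5S3, RNA5S4, RNA5S5 and RNA5S12 were at 4 sites that lay nearest to RHOU, and the 3 signal recognition particle RNA genes RN7SL1, RN7SL2 and RN7SL3 each had a site. RN7SL1 (site chr14:49586579-49586875) had 224 reads with vehicle and 220 with TGFB1, and RN7SL2 had 212 and 214. RN7SK, the RNA that holds back the elongation factor P-TEFb, had 202 and 208, and RMRP, the RNA of the mitochondrial RNA processing ribonuclease, had 138 and 138. RPPH1, the RNA of ribonuclease P, had 138 and 130. These strong sites had near equal pileups but unequal fold enrichment, at RN7SL1 5.46 with vehicle and 12.4 with TGFB1. The SNORD141A site, which also overlaps the pseudogene EEF1A1P5, was lower with TGFB1 on both scales, with pileups of 101 and 45. Of the 46 sites, 35 were higher with TGFB1 by pileup and 41 by fold enrichment. None reached 2 times the vehicle value by pileup (median ratio 1.23), and 10 did by fold enrichment (median ratio 1.62).

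The small RNA sites form clusters. The sites nearest to CCDC200 number 13 within chr17:43233317-43300382, and 9 of them overlap an snRNA gene, among them RNU2-1, a gene for the U2 RNA of the spliceosome. Nearest to FCGR2A are 7 sites that overlap tRNA genes within chr1:161440783-161471326, 4 of them with a peak in all 8 other lists. Their pileups ran from 30 to 49 reads with vehicle and from 48 to 65 with TGFB1. Of the 46 small RNA sites 14 had a peak in all 8 other lists, and 33 were acetylated in both treatments. Repeated genes such as these are near-identical, and how reads that map to several copies were placed is not given in the sources used here, so the call at any 1 copy is uncertain.

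Pseudogenes were overlapped by 54 sites (17.2%, 13.4 to 21.8), against 2.06% of all SMAD2/3 TGFB1 peaks near a gene, and 53 of them are in no class above. Ribosomal protein pseudogenes, intronless copies of the mRNAs of ribosomal proteins, made up 34 of them (10.8%, 7.85 to 14.8), against 0.519%. They were 15 of the 9134 peaks in the TGFB1 list alone (0.164%) and 10 of the 78 in the vehicle list alone (12.8%, 7.12 to 22.02). Copies of large subunit genes were at 19 sites and of small subunit genes at 15. Each of the 34 peaks lay wholly within the annotated pseudogene and covered a median of 58.8% of it. The median pileup was 24 reads with vehicle and 16 with TGFB1. The vehicle value was the higher at 31 of the 34 by pileup but at 20 by fold enrichment, so no direction is read from them. RPS18P5 (site chr3:101576489-101576913) had 60 and 30 reads, RPL13P12 (chr17:17383434-17384031) had 58 and 33, and RPL13AP5 (chr10:96750291-96750820) had 56 and 47. No ribosomal protein pseudogene site was acetylated in either treatment, and 24 of 34 had no peak in any other list.

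Counted by gene over all chromosomes used, 53 of 1985 annotated ribosomal protein pseudogenes had a SMAD2/3 peak with vehicle, 56 had one with TGFB1 and 43 had both. Those 43 are 81.1% of the first group and 76.8% of the second, and 30 of them had no peak in the other 8 lists. MITF with vehicle was called at 12 of the 43, MITF with TGFB1 at 4, and each of the 6 remaining lists at 1 or 2. Over all 1985 copies MITF was called at 15 with vehicle (0.756%) and at 8 with TGFB1 (0.403%). Each of the 6 remaining lists had a peak at 15 to 54 of the 1985. Copies share sequence with their parent gene, so reads at either may be misplaced, and this was not tested.

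Chromosome ends held 11 sites (3.50%, 1.97 to 6.16), against 0.138% of all SMAD2/3 TGFB1 peaks near a gene, and 10 of them are in no class above. The TGFB1 list alone held 2 such peaks. The 10 had the highest pileups of any class, with a median of 164 reads with vehicle and 189 with TGFB1 over a background that was also high (medians of 31.4 and 23.6). The site 29.2 kb outside ANHX (chr12:133264941-133265306) had 322 and 340 reads, the one 36.3 kb outside TUBB8 (chr10:10000-10403) had 266 and 273, and the one nearest LOC107987432 (chr5:10014-11779) had 482 and 329. None of the 10 overlapped an H3K27ac peak, all 10 overlapped an ATF3 peak with vehicle and 7 one with TGFB1. The ratio of TGFB1 to vehicle ran from 0.683 to 1.37 by pileup, with 7 sites higher with TGFB1. By fold enrichment it ran from 1.04 to 2.26, with all 10 higher and 1 past 2 times.

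Outside the 3 classes the picture was mixed. Of the 158 sites acetylated in both treatments 38 (24.1%) had a TGFB1 value of at least 2 times that of vehicle by pileup, and 47 (29.7%) by fold enrichment. The median ratio was 1.23 by pileup and 1.42 by fold enrichment, and 59 and 31 sites were lower with TGFB1. The highest ratio was that of HES1 by pileup (8.93) and of LEKR1 by fold enrichment (9.73). Of the 40 without acetylation 7 reached 2 times by pileup and 7 by fold enrichment, but not all the same sites. GARNL3 did so by pileup only and FAM120B by fold enrichment only. The median ratio was 0.751 by pileup and 0.997 by fold enrichment, and 28 and 20 sites were lower with TGFB1. CFAP99, LHX2 (27 and 85 reads) and TRIL (17 and 63) were among the 7 by pileup, while FRG2B (269 and 164) and ROCK1 (97 and 44) were among the 28. The local background was high at FRG2B, 121 with vehicle and 82.0 with TGFB1, and was 16.0 and 8.33 at ROCK1. It was also high at other sites outside the 3 classes. Without acetylation these included LOC124905450 (182 and 104) and a DUX4 site (131 and 92.6). Among those acetylated in both treatments were PLS3 (79.2 and 50.4) and NID1 (51.9 and 34.0). In all, 49 of 314 sites reached 2 times by pileup and 72 by fold enrichment.

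**Figure D3:**
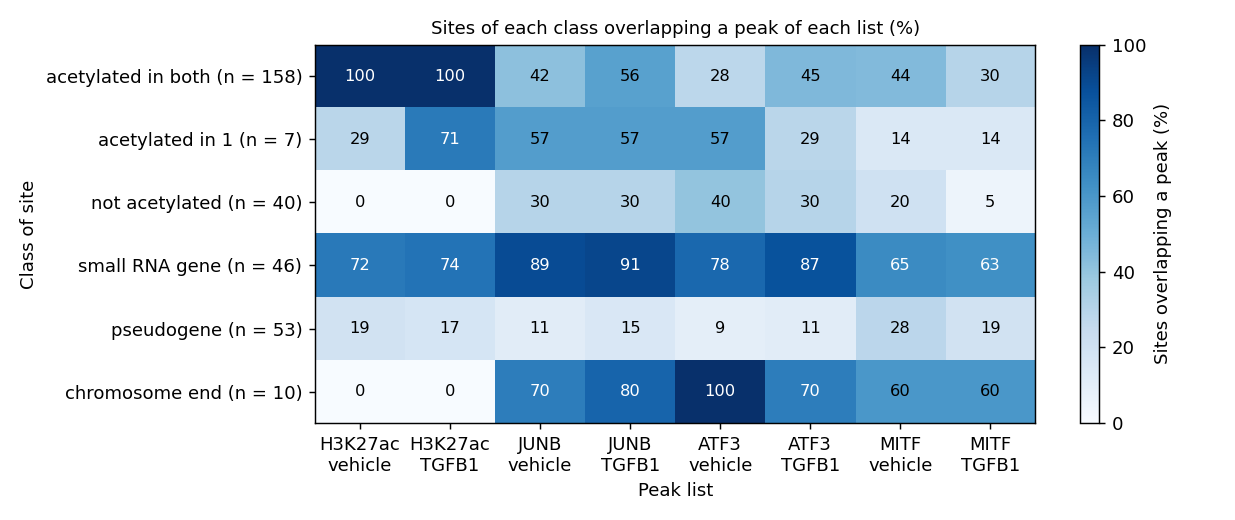
Share of the sites of each class (rows, with their number) that overlap a peak of each of the 8 other lists (columns), in percent, darker for higher. Small RNA genes are covered by most lists, pseudogenes by few, and chromosome ends by ATF3 with vehicle at 10 of 10 sites but by H3K27ac at none.

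The other 8 lists were not used to choose the sites. H3K27ac with vehicle covered 203 of the 314 sites (64.6%, 59.2 to 69.7), against 75.4% of all SMAD2/3 TGFB1 peaks near a gene and 75.7% of those in the TGFB1 list alone. With TGFB1 it covered 206 (65.6%, 60.2 to 70.6), against 81.4% and 82.0%. The 105 sites acetylated in neither treatment comprised 43 pseudogene sites, 12 small RNA sites, 10 chromosome ends and the 40 others. Outside the 3 classes the shares were 78.0% (71.9 to 83.2) with vehicle and 79.5% (73.5 to 84.5) with TGFB1, and these intervals include the 75.9% and 82.2% of the TGFB1 list alone outside the same classes. Acetylation called in 1 treatment was rare. It was called with TGFB1 alone at 6 of 314 sites (1.91%, 0.879 to 4.11), against 7.99% (7.45 to 8.57) in the TGFB1 list alone, and with vehicle alone at 3. A site inside STON1, an endocytic adaptor gene, is one of the 6 (chr2:48556395-48556937), with 41 reads with vehicle and 36 with TGFB1.

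Of the 8 lists, that of MITF with vehicle showed the largest gap between the shared sites and the TGFB1 list alone. It covered 130 sites (41.4%, 36.1 to 46.9), against 11.4% of all SMAD2/3 TGFB1 peaks near a gene and 10.4% (9.77 to 11.0) in the TGFB1 list alone. With TGFB1 it covered 95 (30.3%, 25.4 to 35.5), against 11.4% and 10.7%. It was called in both treatments at 68 sites, with vehicle alone at 62 and with TGFB1 alone at 27. In the TGFB1 list alone the last 2 counts were nearly equal, 472 and 504. Outside the 3 classes MITF covered 38.5% (32.1 to 45.3) with vehicle and 24.4% (19.0 to 30.7) with TGFB1, against 10.0% and 10.4%. The highest MITF value at a shared site acetylated in both treatments was at CHD1L, a chromatin remodeller gene, with -log10 p of 224 in the vehicle list and 137 in the TGFB1 list, and the SMAD2/3 pileups there were 40 and 75 reads.

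ATF3, a stress-induced factor, with vehicle covered 115 sites (36.6%, 31.5 to 42.1), against 15.9% and, in the TGFB1 list alone, 15.1% (14.4 to 15.9). With TGFB1 it covered 138 (43.9%, 38.6 to 49.5), against 45.1% and 45.1%. The vehicle ATF3 library was the shallower by implied depth, 6.37 M reads against 28.1 M, and the part of depth in these counts was not tested. ATF3 called with TGFB1 alone was found at 50 sites (15.9%), against 31.7% in the TGFB1 list alone. JUNB with vehicle covered 136 sites (43.3%, 37.9 to 48.8), against 47.3% and 47.4%. With TGFB1 it covered 162 (51.6%, 46.1 to 57.1), against 62.4% and 62.8% (61.8 to 63.8). JUNB was the deepest set, at 34.1 M and 47.7 M reads.

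**Figure D4:**
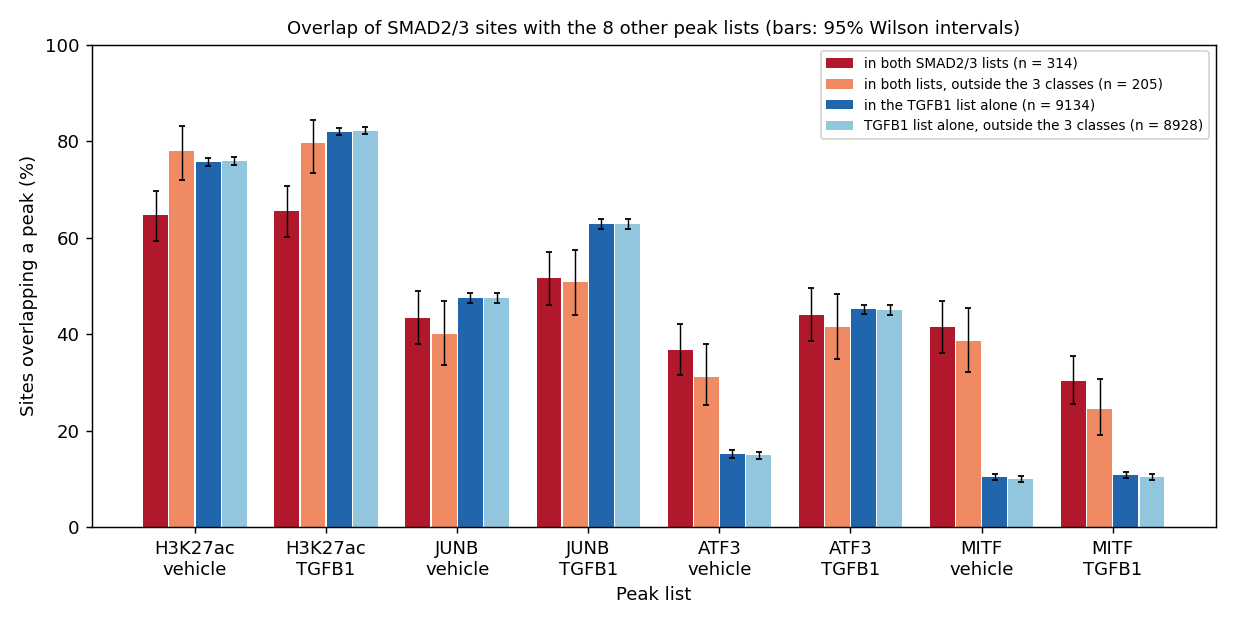
Share of sites (percent, bars from 0) that overlap a peak of each of the 8 other lists, for the 314 sites in both SMAD2/3 lists, the 205 outside the 3 classes, and the peaks of the TGFB1 list alone with and without the same classes. Error bars are 95% Wilson intervals. With intervals apart, the bars of the 314 sites stand above those of the TGFB1 list alone for MITF in both treatments and ATF3 with vehicle. They stand below them for H3K27ac in both treatments and JUNB with TGFB1. Outside the 3 classes the H3K27ac bars lie near those of the TGFB1 list alone outside the same classes.

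All 8 other lists had a peak at 24 sites (7.64%, 5.19 to 11.1), against 1.15% of all SMAD2/3 TGFB1 peaks near a gene, and 14 of the 24 were small RNA genes. No other list had a peak at 45 sites (14.3%, 10.9 to 18.6), against 5.95%. The summit lay within 1 kb of a gene end at 79 sites (25.2%, 20.7 to 30.2), against 23.3%. Outside the 3 classes it did so at 73 of 205 (35.6%, 29.4 to 42.4), against 23.5% (22.6 to 24.4) in the TGFB1 list alone.

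Shared sites were wider and had higher -log10 p than the rest, with a median width of 453 bp against 279 and a median -log10 p of 17.0 against 10.3, so the shares outside the 3 classes were also taken within bands of -log10 p. Below 20, MITF with vehicle covered 50 of 121 shared sites (41.3%, 33.0 to 50.2), against 9.53% of 7480 in the TGFB1 list alone. From 20 to 50 it covered 15 of 48 (31.3%, 19.95 to 45.3), against 10.8%. From 50 to 100 it covered 4 of 18 (22.2%, 9.001 to 45.2), against 17.7%, and from 100 up it covered 10 of 18 (55.6%, 33.7 to 75.4), against 42.5%. The intervals were apart in the lower 2 bands and overlapped in the upper 2. The other measures follow in the order of the bands, shared sites first. ATF3 with vehicle stood at 23.1% against 12.95%, 47.9% against 23.5%, 33.3% against 32.8% and 38.9% against 12 of 40 sites, with intervals apart in the lower 2 bands. JUNB with TGFB1 stood at 32.2% against 58.7%, 72.9% against 82.7%, 88.9% against 89.9% and 77.8% against 87.5%, with intervals apart below 20 only. Gene ends held 36.4% (28.3 to 45.2) against 26.4% (25.4 to 27.4), 43.8% (30.7 to 57.7) against 8.51% (7.07 to 10.2), 22.2% against 7.58% and 22.2% against 2 of 40 sites. The gap at gene ends was thus smaller below 20, where 121 of the 205 sites lie, than from 20 to 50.

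**Figure D5:**
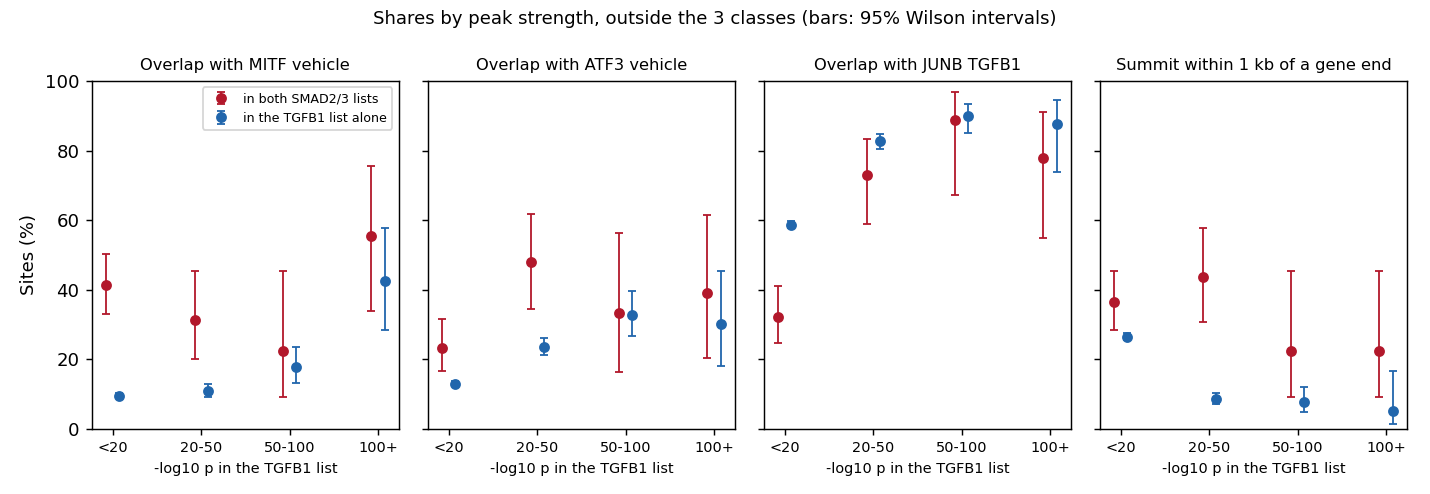
Share of sites (percent) that overlap an MITF vehicle, ATF3 vehicle or JUNB TGFB1 peak or lie within 1 kb of a gene end, by -log10 p in the SMAD2/3 TGFB1 list, outside the 3 classes. Red points are the sites in both lists, blue points those in the TGFB1 list alone, and bars are 95% Wilson intervals. MITF with vehicle stands apart below 50 only.

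The rule has thresholds, and the sites at them are given without a test. The smallest overlap with a vehicle peak was 9 bp, at CHRM5 (-log10 p of 9.33 with TGFB1 and 5.20 with vehicle), followed by 28 bp at PTP4A2 (9.17 and 8.78). Just outside, a TGFB1 peak near SLC2A11 lay 1 bp from a vehicle peak (17.9 and 8.46), and one near HHAT lay 19 bp away (5.23 and 6.74). The site farthest from a gene was 87.9 kb from ZNF706, and the nearest peak beyond the limit was 103 kb from CA10.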

How the data were processed

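The deposited peak lists were used, 1 for each of 10 libraries. Reads were aligned with Bowtie to GRCh38 and peaks called with MACS2 (version 2.0), per the submitters' processing notes; the control and the handling of duplicates are not given in the sources used here. The fold enrichment ratio, the -log10 p and -log10 q and the summit offset are the authors' deposited values. The score deposited by the authors is 10 times the -log10 q, cut to a whole number, and was not used. The 6 inputs were not analysed here.

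Identical intervals were counted once, and an overlap needed 1 bp or more. Pileups were solved from fold and -log10 p with a pseudocount of 1, and depth from the lowest background, the shortest peak and an assumed genome of 2.7 Gb, so it is an estimate. Genes were 19970 RefSeq protein-coding genes, without strand, so either gene end was counted. Python 3.11.15, pandas 2.3.3, numpy 2.4.6, scipy 1.17.1 and matplotlib 3.10.9 were used, and overlaps and pileups were tested on simulated data. The sites and the 9 gene lists were chosen with earlier results of these data known. Named sites were the 10 of highest -log10 p with TGFB1, the 5 of highest with vehicle, up to 4 for each gene list, the strongest 4 without acetylation, 3 acetylated with TGFB1 alone and 4 with MITF in both, those at the rule's limits, and genes with at least 3 sites. 1 gene was left out of the lists and is not reported here, some sites are given by count only, and others were named after their values were seen. Alternatives were a stricter q, other overlap rules and gene windows, the strongest peaks alone, removal of the 3 classes, and fold enrichment in place of pileup.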

Additional observations from a re-analysis of the deposited data

How the results depend on the processing

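The count of 314 sites was 208 with a -log10 q of at least 5 in both SMAD2/3 lists, 588 with no gene window, 93 among the 1000 strongest TGFB1 peaks, and 205 after removal of small RNA genes, pseudogenes and chromosome ends, an alternative chosen after the data had been seen. That removal moved the share with H3K27ac to 78.0% (vehicle) and 79.5% (TGFB1), with ATF3 vehicle to 31.2%, with MITF TGFB1 to 24.4% and at gene ends to 35.6%. The stricter q in both SMAD2/3 lists gave 58.2% and 59.6% for H3K27ac and 50.5% for JUNB vehicle. A q as strict in the other list gave 36.3% for JUNB vehicle, 26.4% for ATF3 vehicle, and 28.3% and 23.6% for MITF with vehicle and TGFB1. With the summit required inside the other peak, the shares with vehicle and TGFB1 were 47.8% and 51.3% for H3K27ac, 36.9% and 45.5% for JUNB, 26.1% and 35.4% for ATF3, and 30.9% and 21.3% for MITF. With the 5000 strongest peaks of each list they were 28.7% and 30.9% for H3K27ac, 12.1% and 10.2% for JUNB, and 14.3% and 7.96% for ATF3. A margin of 500 bp gave 42.4% for ATF3 vehicle. The gene-end share was 18.8% within 500 bp and 40.8% within 5 kb. Fold enrichment in place of pileup, likewise chosen after the data had been seen, is given beside each count of direction. Of 83 values recomputed, 45 moved by more than their counting interval or by over 1.5 times, and 38 did not. The cause of each move was not tested, beyond fewer or more sites and peaks entering.

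No paired analysis was possible because each antibody and treatment had 1 library. With 1 library a group none was left out. Where a list has no peak at a site, binding was not detectable at that library's depth.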
